A study of Mus musculus with 8 samples.

Results

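The constant genes of antibody light chains and the genes of antibody transport were followed in mouse lung RNA: the kappa constant gene Igkc, the lambda constant genes Iglc1, Iglc2 and Iglc3, the joining chain Jchain, the polymeric immunoglobulin receptor Pigr and the neonatal Fc receptor heavy chain Fcgrt. These 7 of the 52636 gene identifiers in the count files were chosen by name, with their levels in all 8 libraries already known. Their levels and differences below are therefore a description, given with errors and supported by no test. How many of them passed a threshold in the reported fit is given beside the same count over all genes. Nothing is read from that count under any setting. Lung RNA came from wild-type male C57BL/6 mice in 4 groups of 2 libraries each. For the COPD mice model (COPD mice below), porcine pancreatic elastase (PPE) was put into the trachea at 10 weeks of age and lipopolysaccharide (LPS, 100 µg) was given from 12 weeks, which the labels write as elastase and LPS. Control mice were given PBS in their place. Mice of either kind ate a control diet or one with 2% TJ-41 (hochuekkito, a herbal medicine mixture, written TJ41 or TJ4 in the labels) from 8 weeks of age. The age at which RNA was taken, and whether the paired libraries came from separate mice, were not given in the sources used here. Apart from Wilson intervals, which cover counting error only, the errors below therefore measure the spread between these libraries, which may be technical. Those of log2 differences use a spread fitted for each gene over all 4 groups.

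Each antibody is built from heavy chains and light chains, and a mature B cell or plasma cell uses either kappa or lambda as its light chain. The J chain is a small protein that plasma cells add when they join IgA into dimers and IgM into pentamers. The polymeric immunoglobulin receptor, carried by airway and glandular epithelium, binds these J chain-containing polymers, moves them across the cell and releases them into the airway as secretory antibody. The neonatal Fc receptor, a dimer of Fcgrt protein and beta-2-microglobulin, binds IgG inside endothelial cells, macrophages and epithelium and returns it to the blood or passes it across the cell.

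The libraries held 18767295 to 20888042 counts, and the smallest count of any of the 7 genes was 157, so that all passed the filter on low counts. A count of 3 corresponded to 0.153 to 0.162 CPM (the count set against the library total, which was scaled with TMM factors of 0.935 to 1.02). The COPD libraries on control diet stood apart from each other: the SD across genes of the log2 CPM difference between the paired libraries was 0.798 in that group and 0.394 to 0.469 in the other 3. Their replicate 2 had the highest summed CPM of 7 alveolar type II cell markers (37456, against 18400 to 28022 in the other 7 libraries) and of 6 club cell markers (32506, against 14049 to 23475). Where leaving out either of them turned a difference of the 7 genes between COPD mice and control mice, or between diets in COPD mice, or moved it by over 1.5 times, the values without each are given. Markers of lung cell types (alveolar, club, ciliated, endothelial) were detected in every library, with none at 0.

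Where a lambda read can be placed depends on how far the lambda genes differ, and for that reason a stretch of their coding sequence is shown. Igkc lies at chr6:70726435-70726966 on the plus strand as a single exon. Iglc1 (chr16:19061618-19062071), Iglc3 (chr16:19065230-19065681) and Iglc2 (chr16:19198396-19200351) lie on the minus strand of the lambda locus, all in GRCm38. The 3 lines below hold 100 aligned coding bases of each lambda gene from the GENCODE M21 transcripts, read 5′ to 3′ on the coding strand, with capitals at the 30 positions where the 3 genes are not all the same.
Iglc1: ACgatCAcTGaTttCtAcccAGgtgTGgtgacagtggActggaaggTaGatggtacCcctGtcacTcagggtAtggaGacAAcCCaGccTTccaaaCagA
Iglc2: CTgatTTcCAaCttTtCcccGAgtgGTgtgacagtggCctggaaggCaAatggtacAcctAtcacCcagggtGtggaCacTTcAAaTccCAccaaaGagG
Iglc3: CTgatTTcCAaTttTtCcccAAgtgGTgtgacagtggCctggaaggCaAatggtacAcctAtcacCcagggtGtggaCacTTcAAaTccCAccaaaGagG
The stretches are chr16:19061889-19061988, chr16:19198670-19198769 and chr16:19065499-19065598, in that order, each within the constant exon. In this window Iglc1 differed from Iglc2 at 30 bases and from Iglc3 at 28, while Iglc2 and Iglc3 differed at 2. Over the whole coding region Iglc2 and Iglc3 were 96.5% identical (11 differing bases of 314, with 1 identical run of 79), and Iglc1 was 74.8% and 75.4% identical to them. Of all 50-base words in the annotated transcripts, 7.65% of those in Iglc2 and 22.3% of those in Iglc3 also occurred in another gene, against 0% for Igkc and Iglc1. The split of reads between Iglc2 and Iglc3 is therefore uncertain, because the treatment of reads that match both was not given in the sources used here. Iglc3 also shares 93 of its 452 exonic bases with the antisense gene 2010309G21Rik, which had 10 to 20 counts a library, and without strand their reads cannot be told apart. Iglc2 shares 38 of 612 exonic bases with the joining segment Iglj2, which had 0 counts in all 8 libraries.

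Kappa transcripts were low in control mice and high in COPD mice on both diets. Igkc stood at 134 and 147 CPM in control mice fed control diet (replicate 1, then replicate 2, here and below) and at 277 and 209 CPM in control mice fed TJ-41. In COPD mice it stood at 929 and 1604 CPM on control diet and at 1506 and 445 CPM on the TJ-41 diet. All 4 COPD libraries were above all 4 control libraries, and the lowest COPD value belonged to replicate 2 on the TJ-41 diet. The Igkc difference between COPD mice and control mice was 3.17 on the log2 scale (SE 0.52), a 9.02-fold higher level, on control diet. On the TJ-41 diet it was 2.01 (SE 0.50), which became 0.88 without the COPD replicate 1 and 2.64 without the COPD replicate 2. Between the diets Igkc differed by 0.79 (SE 0.48) in control mice, where the groups did not overlap, and by −0.38 (95% interval −1.46 to 0.70) in COPD mice, where they did. That last difference was −0.71 without replicate 1 and 0.07 without replicate 2 of COPD mice fed control diet, and −1.51 and 0.25 without replicate 1 and replicate 2 of COPD mice fed TJ-41. In RNA from lung tissue, more antibody-producing cells and more antibody RNA in each cell cannot be told apart.

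**Figure D1:**
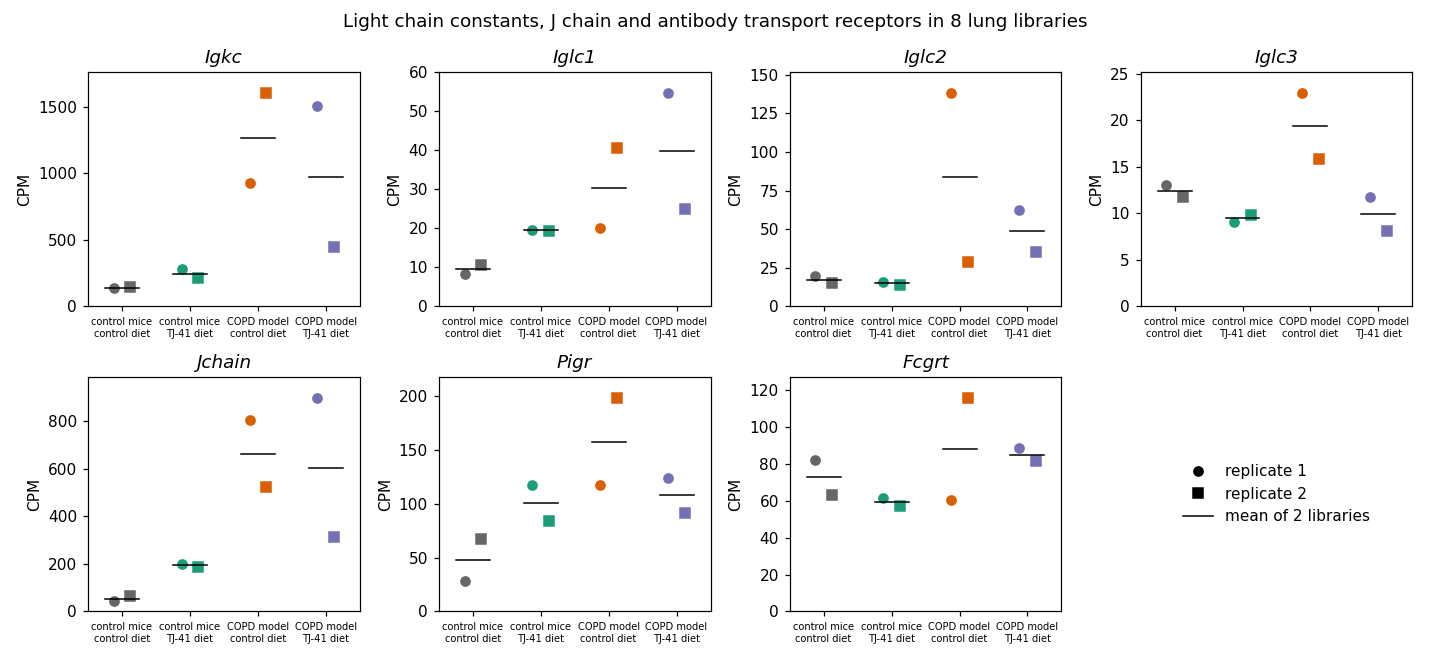
CPM of each of the 7 genes in the 8 libraries, with 1 panel a gene, the 4 groups on the x axis, circles for replicate 1, squares for replicate 2 and a line at the mean. Igkc, Iglc1, Iglc2 and Jchain were higher in all 4 COPD libraries than in all 4 control libraries, while Fcgrt stayed between 57.2 and 115 CPM throughout. The share of all genes separated in that way was not counted.

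The lambda constant genes were lower than kappa in every library and moved unlike each other. Iglc1 was measured at 8.21 and 10.7 CPM in control mice fed control diet and at 19.6 and 19.2 CPM on the TJ-41 diet. In COPD mice Iglc1 reached 19.97 and 40.6 CPM on control diet and 54.7 and 25 CPM on the TJ-41 diet. It thus followed the same order of groups as Igkc in the control mice, and the COPD groups overlapped each other. Iglc2 was at 19.3 and 15.3 CPM in control mice fed control diet, and at 16.0 and 13.9 CPM on the TJ-41 diet. Its COPD values were 138 and 28.8 CPM on control diet and 62.3 and 34.9 CPM on the TJ-41 diet. One library, COPD replicate 1 on control diet, held by far the highest Iglc2 level. Iglc3 showed the smallest range, with 13.1 and 11.8 CPM in control mice fed control diet, 9.07 and 9.84 CPM on the TJ-41 diet, 22.9 and 15.8 CPM in COPD mice fed control diet and 11.7 and 8.13 CPM on the TJ-41 diet. Its 2 highest libraries were the COPD libraries on control diet, and its lowest was a COPD library on the TJ-41 diet.

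On control diet COPD mice exceeded control mice by 2.27 (SE 0.60) for Iglc2, 1.68 (SE 0.41) for Iglc1 and 0.64 (SE 0.26) for Iglc3 on the log2 scale. The Iglc2 difference rested largely on 1 library: it was 0.73 without COPD replicate 1 and 3.0 without COPD replicate 2. The Iglc1 difference was 2.10 without COPD replicate 1 and 1.08 without COPD replicate 2, and that of Iglc3 was 0.34 and 0.88. The differences on the TJ-41 diet were 1.70 (SE 0.59) for Iglc2, 1.04 (SE 0.40) for Iglc1 and 0.07 (SE 0.26) for Iglc3. Without COPD replicate 1 on the TJ-41 diet those of Iglc2, Iglc1 and Iglc3 became 1.22, 0.37 and −0.21, and without its replicate 2 they became 2.06, 1.499 and 0.31. Within COPD mice the TJ-41 diet went with lower Iglc3, by −0.96 (95% interval −1.55 to −0.37), and the libraries of the 2 diets did not overlap. For Iglc2 the same difference was −0.78 (SE 0.57), and it turned to 0.76 without COPD replicate 1 on control diet and was −1.51 without replicate 2. For Iglc1 it was 0.40 (SE 0.40), −0.02 without that replicate 1 and 0.99 without that replicate 2, with a range of −0.27 to 0.99 over all alternatives.

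The share of kappa among the light chain constant reads (Igkc against the sum of Iglc1, Iglc2 and Iglc3) was lowest in control mice fed control diet. There it was 76.7% (95% Wilson interval 75.2 to 78.1) and 79.5% (78.2 to 80.8), and on the TJ-41 diet it was 86.1% (85.2 to 86.9) and 82.9% (81.8 to 84.0). In COPD mice it was 83.7% (83.2 to 84.2) and 94.96% (94.7 to 95.2) on control diet and 92.1% (91.8 to 92.4) and 86.8% (86.1 to 87.4) on the TJ-41 diet. These intervals cover counting error only, and the paired libraries lay outside each other's intervals in all 4 groups, so the spread between libraries set the precision. The group means were 78.1% ± 2.0 (SD, n = 2), 84.5% ± 2.2, 89.3% ± 8.0 and 89.4% ± 3.8 in the same order. The ratio of kappa to lambda reads was 3.29 and 3.89 in control mice fed control diet, 6.19 and 4.86 in control mice fed TJ-41, 5.13 and 18.8 in COPD mice fed control diet and 11.7 and 6.55 in COPD mice fed TJ-41. Per base of exon the order was kept, from 3.20 and 3.70 in control mice fed control diet to 5.45 and 17.6 in COPD mice on the same diet. All 6 other libraries were above the 2 libraries of control mice fed control diet, and the libraries of COPD mice fed control diet lay on either side of those of COPD mice fed TJ-41.

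Both parts of that ratio differed in COPD mice. Summed lambda reads were at 40.6 and 37.8 CPM in control mice fed control diet, 44.7 and 43.0 CPM on the TJ-41 diet, 181 and 85.2 CPM in COPD mice fed control diet and 129 and 68.0 CPM on the TJ-41 diet. Lambda was thus higher in all 4 COPD libraries than in all 4 control libraries, as kappa was, but by less in the group means. In control mice lambda was slightly higher on the TJ-41 diet, and Igkc was higher by more. The share computed from variable genes gave smaller contrasts: reads of 160 kappa variable genes made up 91.4% and 87.4% of all light chain variable reads in control mice fed control diet. The same share was 91.9% and 90.1% on the TJ-41 diet, 88.4% and 94.8% in COPD mice fed control diet and 94.4% and 92.2% on the TJ-41 diet, and the ranges of all 4 groups overlapped with at least 1 other group.

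**Figure D2:**
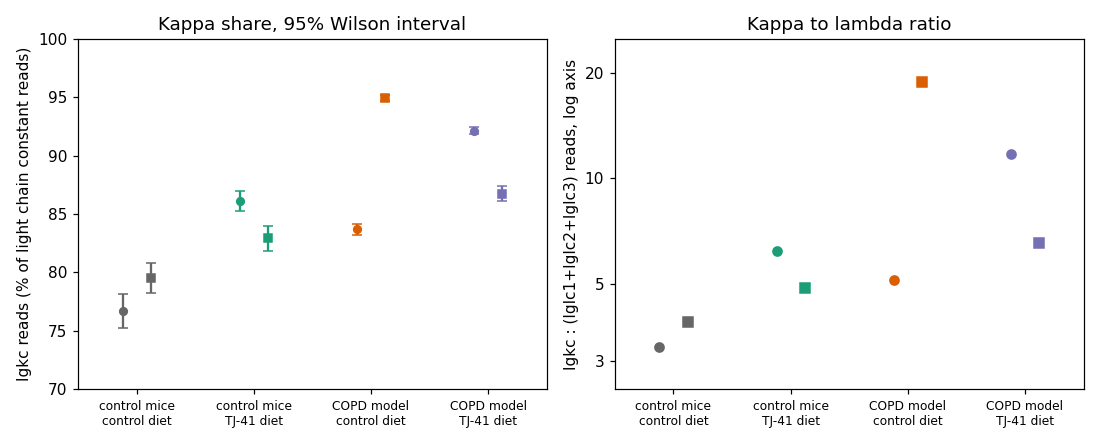
Left, Igkc reads as a percentage of light chain constant reads in each library (bars, 95% Wilson intervals, axis from 70 to 100%). Right, the ratio of Igkc reads to summed Iglc1, Iglc2 and Iglc3 reads on a log axis. Circles are replicate 1 and squares replicate 2, and the libraries of COPD mice fed control diet lie far apart at 5.13 and 18.8.

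The mix of lambda genes differed from library to library. In the lambda locus, read along the minus strand, the variable genes Iglv2 and Iglv3 lie upstream of Iglc2, and Iglv1 lies upstream of Iglc3 and Iglc1. Iglc2 made up 47.6% and 40.5% of lambda constant reads in control mice fed control diet, 35.8% and 32.4% on the TJ-41 diet, 76.3% and 33.8% in COPD mice fed control diet and 48.4% and 51.3% on the TJ-41 diet. The library with 76.3% was also the one with 2482 reads of Iglv2, against 145 in its paired library. Across the remaining groups Iglv2 had 62 and 98 reads in control mice fed control diet, 50 and 56 on the TJ-41 diet, and 862 and 436 in COPD mice fed TJ-41. Iglv2 and Iglc2 were thus high in the same libraries, with a Pearson r of 0.97 between their log2 CPM. Iglv1 had 158 and 299 reads, then 516 and 595, then 910 and 811, then 1566 and 591 in the same order of groups. Its r was 0.92 with Iglc1 and 0.17 with Iglc3. These correlations are over 8 libraries that share their groups and are given as a description. The share of Iglc3 was 32.2% and 31.2% in control mice fed control diet and 20.3% and 22.9% on the TJ-41 diet. In COPD mice it was 12.6% and 18.5% on control diet and 9.08% and 11.95% on the TJ-41 diet, so every COPD library was below every control library.

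**Figure D3:**
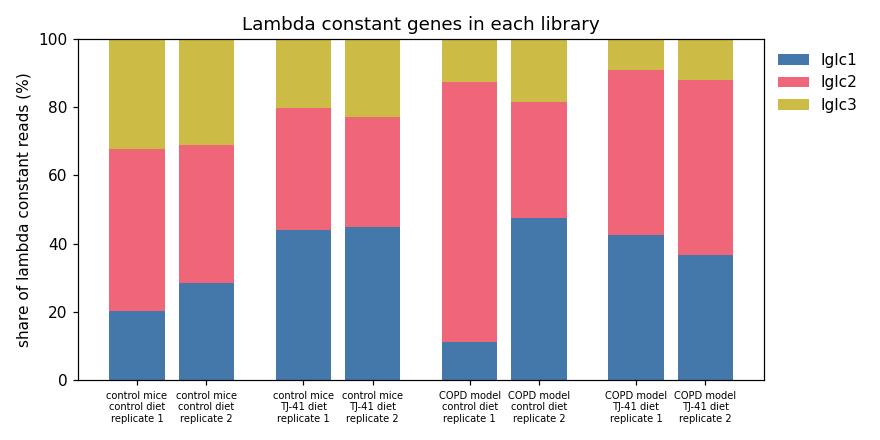
Share of lambda constant reads (%, y axis from 0 to 100) taken by Iglc1, Iglc2 and Iglc3 in each of the 8 libraries. The Iglc2 share reached 76.3% in COPD mice fed control diet, replicate 1, and lay between 32.4% and 51.3% in the other 7 libraries.

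J chain showed the largest difference of the 7 genes between COPD mice and control mice fed control diet. Jchain (chr5:88519809-88527891, minus strand) stood at 43.3 and 63.3 CPM in control mice fed control diet and at 201 and 185 CPM in control mice fed TJ-41. In COPD mice it stood at 803 and 521 CPM on control diet and at 895 and 314 CPM on the TJ-41 diet. Every control library on the TJ-41 diet was above both on control diet, and every COPD library was above every control library. On control diet COPD mice exceeded control mice by 3.64 on the log2 scale (SE 0.47), a 12.4-fold higher level. The difference on the TJ-41 diet was 1.64 (SE 0.44), and it was 0.70 without COPD replicate 1 and 2.22 without COPD replicate 2. In control mice the TJ-41 diet went with a level higher by 1.86 (SE 0.44), which ranged from 1.61 to 2.15 over all alternatives. In COPD mice the diets differed by −0.13 (95% interval −1.09 to 0.83), so that a difference of either sign lay within the interval. Without replicate 1 of COPD mice fed control diet it turned to 0.21, without replicate 2 it was −0.41, and leaving out replicate 1 or replicate 2 of COPD mice fed TJ-41 gave −1.07 and 0.44. The change of the diet difference from control mice to COPD mice was −1.99 (SE 0.61), with a range of −2.93 to −1.41 over all alternatives.

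Relative to light chain transcripts, J chain was higher in control mice fed TJ-41, and in 3 of the 4 COPD libraries, than in control mice fed control diet. Per base of exon, Jchain was at 0.052 and 0.072 of the summed light chain constant level in control mice fed control diet and at 0.131 and 0.154 on the TJ-41 diet. The COPD values of this ratio were 0.155 and 0.065 on control diet and 0.115 and 0.129 on the TJ-41 diet. Set against Igha and Ighm, the heavy chains whose polymers hold J chain, Jchain was at 0.084 and 0.104 in control mice fed control diet and at 0.202 and 0.228 on the TJ-41 diet. The same ratio was 0.306 and 0.243 in COPD mice fed control diet and 0.274 and 0.160 on the TJ-41 diet. Control mice on control diet therefore had the lowest J chain level for their IgA and IgM transcripts, and COPD mice fed TJ-41 overlapped both remaining groups.

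Pigr (chr1:130826684-130852249, plus strand) was lowest in control mice fed control diet and differed by far less than J chain. It was at 28.7 and 67.7 CPM in control mice fed control diet, at 118 and 84.3 CPM on the TJ-41 diet, at 117 and 198 CPM in COPD mice fed control diet and at 124 and 91.7 CPM on the TJ-41 diet. All 6 other libraries were above the 2 of control mice fed control diet, whose paired values were themselves the farthest apart of any group as a fold. The other 3 groups could not be ordered beyond their spread. On control diet COPD mice exceeded control mice by 1.71 (SE 0.40) on the log2 scale, a 3.27-fold higher level, with a range of 1.22 to 2.45 over all alternatives. That difference on the TJ-41 diet was 0.10 (95% interval −0.79 to 0.98), and it ranged from −0.13 to 0.36 over all alternatives. The TJ-41 diet went with a Pigr level higher by 1.07 (SE 0.40) in control mice, which was 0.58 without replicate 1 and 1.81 without replicate 2 of control mice fed control diet. In COPD mice the diet difference was −0.55 (95% interval −1.43 to 0.34), which was −0.87 without replicate 1 and −0.12 without replicate 2 of COPD mice fed control diet. The change of the diet difference between control and COPD mice was −1.61 (SE 0.56), with a range of −2.35 to −1.12 over all alternatives. Summed club cell markers, from cells known to carry the receptor, were at 23475 and 19836 CPM in control mice fed control diet, 20831 and 22055 CPM on the TJ-41 diet, 14049 and 32506 CPM in COPD mice fed control diet and 14956 and 18221 CPM on the TJ-41 diet. Their part in the Pigr levels was not tested.

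Fcgrt (chr7:45092990-45103851, minus strand) had the smallest difference of the 7 genes between COPD mice and control mice on control diet, and between diets in COPD mice. Iglc3 and Pigr differed less than Fcgrt between COPD and control mice fed TJ-41, and Iglc2 differed less between diets in control mice. Fcgrt was at 82.1 and 63.2 CPM in control mice fed control diet, 61.3 and 57.2 CPM on the TJ-41 diet, 60.4 and 115 CPM in COPD mice fed control diet and 88.4 and 81.3 CPM on the TJ-41 diet. Both the lowest and the highest value among mice on control diet came from COPD mice, so those groups overlapped. The difference between COPD mice and control mice was 0.27 (95% interval −0.35 to 0.90) on control diet, and it was 0.66 without COPD replicate 1 and turned to −0.26 without COPD replicate 2. On the TJ-41 diet it was 0.52 (95% interval −0.10 to 1.14), with both COPD libraries above both control libraries. The diet differences were −0.29 (95% interval −0.92 to 0.33) in control mice and −0.05 (95% interval −0.67 to 0.57) in COPD mice, and the second was −0.44 without COPD replicate 1 and 0.49 without COPD replicate 2 on control diet. The summed CPM of 7 macrophage markers, from cells known to carry the receptor, was 767 to 920 in the 4 control libraries, 1121 and 1741 in COPD mice fed control diet and 1485 and 1712 in COPD mice fed TJ-41, while 7 endothelial markers summed to 3358 to 4444 CPM over all libraries. Their part in the Fcgrt levels was not tested.

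Set beside each other per kilobase of exon, J chain was above both transport receptors in COPD mice and in control mice fed TJ-41, but not in control mice fed control diet. In control mice fed control diet Jchain was at 17.2 and 25.1 CPM per kb, Pigr at 7.13 and 16.8 CPM per kb and Fcgrt at 39.0 and 30.1 CPM per kb. Fcgrt was thus the highest of the 3 there. In COPD mice fed control diet Jchain was at 319 and 207 CPM per kb, Pigr at 29.1 and 49.2 CPM per kb and Fcgrt at 28.7 and 54.9 CPM per kb. In control mice fed TJ-41 Jchain stood at 79.9 and 73.7 CPM per kb, Pigr at 29.3 and 20.9 CPM per kb and Fcgrt at 29.1 and 27.2 CPM per kb. In COPD mice fed TJ-41 Jchain stood at 355 and 125 CPM per kb, Pigr at 30.8 and 22.8 CPM per kb and Fcgrt at 42.1 and 38.7 CPM per kb, so that J chain was the highest of the 3 in every library but those of control mice fed control diet. The ratio of Jchain to Pigr per length was 2.41 and 1.496 in control mice fed control diet and 2.73 and 3.52 on the TJ-41 diet. It was 11.0 and 4.21 in COPD mice fed control diet and 11.5 and 5.47 on the TJ-41 diet, above every control library in all 4. The ratio of Pigr to Fcgrt per length was 0.18 and 0.56 in control mice fed control diet and between 0.59 and 1.01 in the other 6 libraries.

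**Figure D4:**
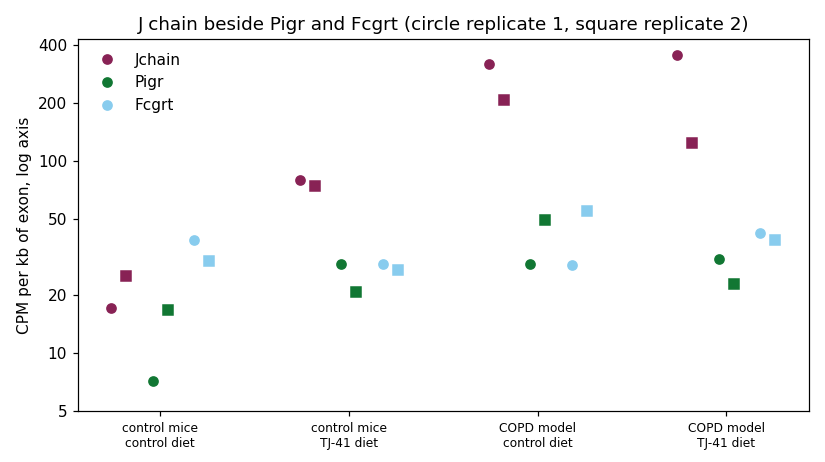
Jchain, Pigr and Fcgrt in each library as CPM per kb of exon on a log axis, with the 4 groups on the x axis, circles for replicate 1 and squares for replicate 2. Jchain was below Fcgrt in both libraries of control mice fed control diet and above Pigr and Fcgrt in the other 6 libraries.

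The 250 bases before the transcription start of Jchain and Pigr are shown because these genes are expressed in different cell types and were both lowest in control mice fed control diet. They were read from RefSeq promoter sequences (GRCm38.p6), 5′ to 3′ on the strand of each gene, and capitals mark the E-box CACGTG, the motif bound by the USF factors among others.
Pigr: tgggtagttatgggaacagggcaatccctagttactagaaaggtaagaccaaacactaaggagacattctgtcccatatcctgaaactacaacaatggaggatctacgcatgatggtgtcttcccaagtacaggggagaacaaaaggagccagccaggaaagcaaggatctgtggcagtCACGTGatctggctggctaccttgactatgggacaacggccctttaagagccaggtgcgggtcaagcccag
Jchain: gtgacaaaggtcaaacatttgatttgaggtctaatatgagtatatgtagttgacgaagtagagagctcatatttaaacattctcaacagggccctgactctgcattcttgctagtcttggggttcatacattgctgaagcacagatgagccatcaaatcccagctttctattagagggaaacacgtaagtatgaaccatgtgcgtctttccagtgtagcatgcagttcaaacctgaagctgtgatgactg
The Pigr stretch is chr1:130826434-130826683 on the plus strand and the Jchain stretch is chr5:88527898-88528147 on the minus strand. CACGTG, which reads the same on both strands, occurred 1 time in the Pigr window, 71 bases before the start, and 0 times in those of Jchain and Fcgrt. It was present in 6.02% of all 32851 windows of the same length. A match describes letters in a window and is not a measured site.

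Taking the 7 genes by comparison, Jchain on control diet was the 1 gene past a false discovery rate (FDR) of 0.05 and a log2 difference of 1 (edgeR quasi-likelihood test) in COPD mice against control mice, where 0.122% of the 20546 genes tested passed. Since the genes were chosen with these libraries known, nothing is read from that count. None of the 7 passed in COPD mice against control mice fed TJ-41 (0.0779% of all genes passed), for TJ-41 in control mice (0%), for TJ-41 in COPD mice (0.00487%) or for the difference between the diet effects (0%). At an unadjusted p under 0.05 these 4 comparisons held 4, 3, 1 and 2 of the 7 genes, and 1347, 336, 842 and 672 of all genes. The Jchain call was lost when either library of control mice was left out, on either diet, with log2 differences of 3.39 to 3.93. Libraries did not overlap for 6 of the 7 genes on control diet, all higher in COPD mice, where 27.6% of all genes did not overlap in either direction. Among mice fed TJ-41, 5 genes were higher without overlap (Igkc, Iglc1, Iglc2, Jchain and Fcgrt), against 56.5% of all genes in either direction. TJ-41 in control mice separated 4 genes upward (Igkc, Iglc1, Jchain and Pigr) and 2 downward (Iglc3 and Fcgrt), against 38.2% of all genes, and in COPD mice it separated Iglc3 alone, downward, against 29% of all genes. The median log2 difference of the 7 genes was 1.71, 1.04, 0.79 and −0.38 in these 4 comparisons, beside all-gene medians of 0.01, 0.00, 0.00 and −0.01. Comparisons that share a group of libraries are not independent of each other.

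**Figure D5:**
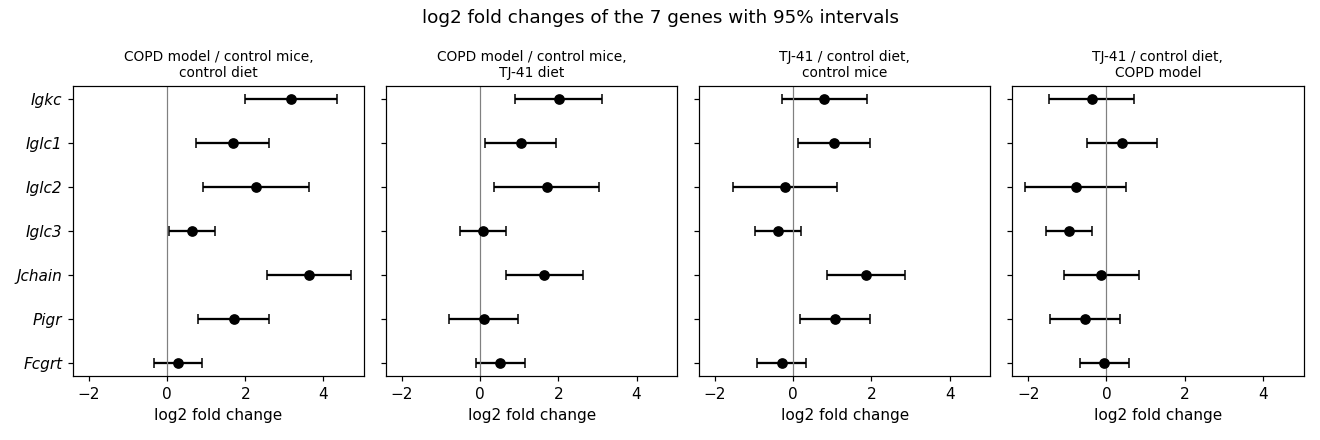
log2 fold changes (x axis) of the 7 genes (y axis) in 4 comparisons, with 95% intervals from the edgeR fit. On control diet COPD mice was higher by 3.64 for Jchain and 3.17 for Igkc, while the Fcgrt interval of −0.35 to 0.90 held 0.

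The other genes of antibody structure and transport were taken from lists by role and tested with edgeR over all genes. The lists were drawn up with earlier results of these data known, so their adjusted p-values describe these libraries and are no independent support. Of the heavy chain constant genes, 7 of 8 could be tested, and 4 passed as higher in COPD mice fed control diet: Ighg1 by 6.23 on the log2 scale (adjusted p = 0.0170), Ighg2c by 5.76 (adjusted p = 0.0341), Ighg3 by 5.41 (adjusted p = 0.00134) and Ighm by 1.89 (adjusted p = 0.0465). Ighg2b was higher by 5.71 (adjusted p = 0.109) and did not pass. On the TJ-41 diet 2 passed, Ighg1 by 5.65 (adjusted p = 0.0147) and Ighg3 by 3.39 (adjusted p = 0.0110). Ighg2c at 4.44 (adjusted p = 0.0803), Ighg2b at 3.09 (adjusted p = 0.514) and Ighm at 1.63 (adjusted p = 0.0960) were higher there without passing. The gamma genes encode IgG, the ligand of the neonatal Fc receptor, and Ighm encodes the heavy chain of IgM. Gamma reads made up 2.77% and 3.88% of heavy chain constant reads in control mice fed control diet, 7.61% and 15.8% on the TJ-41 diet, 32.8% and 34.8% in COPD mice fed control diet and 41.7% and 19.1% on the TJ-41 diet. Igha, the heavy chain of IgA, was at 89.4 and 185 CPM, then 372 and 359 CPM, then 656 and 990 CPM, then 1546 and 318 CPM in the same order of groups. Its difference on control diet was 2.58 (SE 0.64, adjusted p = 0.321) and did not pass the test. No heavy chain gene passed for either diet comparison, where 3 of 7 in control mice and 0 of 7 in COPD mice had an unadjusted p under 0.05. Over all lists 5 genes passed on control diet, a count that was 1 without any single control library and 15 without COPD replicate 1 on control diet, and the 2 that passed on the TJ-41 diet were 0 without either library of control mice fed TJ-41 or without COPD replicate 1.

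Genes that accompany antibody secretion did not pass the test. All 14 genes listed for secretion by plasma cells were tested, none passed in any comparison, and their median log2 difference on control diet was 0.22, with 2 of 14 at an unadjusted p under 0.05, as were 1582 of the 20546 genes tested. Derl3, of the endoplasmic reticulum of secreting cells, was named after its values were seen and had the largest difference of this list on control diet. It does not stand for the list: Xbp1 and Prdm1 barely differed there, and Txndc5, Irf4 and Cd38 were slightly lower in COPD mice. Derl3 was at 1.41 and 1.66 CPM in control mice fed control diet and at 1.59 and 2.76 CPM on the TJ-41 diet. In COPD mice Derl3 was at 3.08 and 3.54 CPM on control diet and at 5.63 and 2.35 CPM on the TJ-41 diet. Its highest library was also the highest for Jchain, Iglc1 and Igha. The summed CPM of 6 plasma cell markers, of which Sdc1 and Xbp1 are also expressed by epithelium, was 437 to 480 in control mice and 471 to 512 in COPD mice. Xbp1 (group means of 275 to 284 CPM) and Sdc1 (135 to 172 CPM) made up most of that sum. Group means of Mzb1 were 7.97 and 7.90 CPM in control mice (control diet, then TJ-41) and 10.7 and 12.1 CPM in COPD mice. Those of Tnfrsf17 were 0.47 and 0.45, then 1.01 and 1.32 CPM, and those of Prdm1 were 19.5 and 22.1, then 19.7 and 21.1 CPM. The summed CPM of 7 B cell markers was 346 to 359 in the 4 control libraries, 372 and 164 in COPD mice fed control diet and 238 and 221 on the TJ-41 diet. Lambda variable and surrogate light chain genes gave 4 testable genes of 10, with none passing and 3 of 4 at an unadjusted p under 0.05 on control diet. Whether the number of plasma cells differed was not tested.

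Of the genes that surround IgA production, 14 of 16 were tested. Ccl20, a chemokine of epithelium that attracts lymphocytes bearing its receptor, was the 1 that passed on control diet. Ccl20 was at 0.63 and 0.83 CPM in control mice fed control diet, 1.18 and 1.62 CPM on the TJ-41 diet, 4.33 and 9.02 CPM in COPD mice fed control diet and 2.82 and 2.30 CPM on the TJ-41 diet. It was higher by 3.18 on the log2 scale (SE 0.45, adjusted p = 0.0465) in COPD mice fed control diet. None of these 14 genes passed in the other comparisons. Ccl28, which draws IgA-secreting cells to mucosa, was low throughout, at 0.58 to 2.61 CPM.

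None of the 14 tested Fc receptor and Fc-binding genes, the 9 genes of Pigr and Fcgrt traffic or the 14 genes known as inducers of Pigr passed in any comparison. At an unadjusted p under 0.05 on control diet these lists held 1, 0 and 1 genes, and on the TJ-41 diet 3, 1 and 1. Their median log2 differences on control diet were −0.01, 0.00 and −0.04, beside 0.01 for all genes. B2m, the light chain that Fcgrt protein needs, was at 1159 and 706 CPM in control mice fed control diet, 870 and 902 CPM on the TJ-41 diet, 1215 and 1546 CPM in COPD mice fed control diet and 997 and 829 CPM on the TJ-41 diet. The same COPD library was the highest for B2m and for Fcgrt.

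The genes whose log2 CPM followed each pattern most closely over the 8 libraries were sought among all genes tested. For Igkc they were Ighg2c (Pearson r 0.99), Igkv14-111 (r 0.98) and Igkv1-131 (r 0.97), a gamma heavy chain and kappa variable genes. For Jchain they were the kappa joining segment Igkj1 (r 0.99), Ighg2b (r 0.99) and Prg2 (r 0.98), a granule protein of eosinophils. For Pigr they were Nek2 (r 0.97), Gm2237 (r 0.97) and A2ml1 (r 0.96), and for Fcgrt they were Isoc2a, Rpl14 and Nfkbil1 (r 0.99 each). The closest genes of Igkc and Jchain were thus mostly other antibody genes, while those of Pigr and Fcgrt were not. With 20546 genes and 8 libraries that share their groups, such values are a description.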

How the data were processed

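Gene-level counts were deposited by the authors as raw whole-number counts per gene and library. The submitters' processing notes name HISAT2, edgeR and the mm10 build, and the study's methods name CLC Genomics Workbench; the counting program, annotation release, strand setting and treatment of reads matching several genes were not given in the sources used here. Of 52636 identifiers, 52489 were named with GENCODE M21. Groups were taken from the sample labels. Genes were kept with filterByExpr (minimum count 10, total 15; 20546 genes), scaled with TMM and fitted with edgeR 4.0.16 (R 4.3.3) as a group-means model with 4 residual degrees of freedom. P-values were adjusted by Benjamini-Hochberg over all genes, and SE was taken from the quasi-likelihood F. DESeq2 1.42.0 was an alternative. The fit was tested on simulated data.

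The 7 genes and all lists were chosen with earlier results of these data known. Named were the 7 genes, up to 4 called genes of each list and comparison, and the 3 genes most correlated (log2 CPM, prior count 2) with Igkc, Jchain, Pigr and Fcgrt. Derl3, Igha, Ccl28, B2m, Iglv1 and Iglv2 were named after their values were seen. Paired libraries differed beyond sampling noise in every group (chi-square per gene of 11.5 to 84.6). Authors' edgeR or CLC comparison values were not used.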

Additional observations from a re-analysis of the deposited data

How the results depend on the processing

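Of the recomputed log2 differences of the 7 genes, 471 kept their sign and their side of the threshold, 27 newly passed it, 4 no longer did and 16 changed sign without having passed. The number of the 7 genes called in COPD mice fed control diet was 1 as reported, beside 25 of all genes. It was 4 with DESeq2 (174 of all genes), 5 with all genes of at least 1 count (147) and 2 with only the 2 groups compared (19). On the TJ-41 diet it was 0 as reported and 2 under each of the same 3 settings. For the TJ-41 diet in control mice it was 0 as reported and 1 with DESeq2 or with only the 2 groups compared. The count over all genes moved with the settings too, so nothing is read from these counts of the 7 genes. List genes called on control diet were 5 as reported, 8 with DESeq2, 9 with all genes, 3 where the mean had to reach 1 CPM, and 1 to 15 with 1 library left out (15 without replicate 1 of COPD mice fed control diet). On the TJ-41 diet they were 2 as reported, 4 with DESeq2, 5 with all genes, 7 with only the 2 groups and 0 to 5 with 1 library left out. For the diet in control mice they were 0 as reported and 1 with DESeq2 or only the 2 groups, for the diet in COPD mice 0 as reported and 0 to 6 with 1 library left out (6 without that same replicate 1), and for the difference of diet effects 0 as reported and 1 with DESeq2. The cause was not tested.

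With a replicate block, 3 list genes were called on control diet and no count of the 7 genes moved. The replicate numbers pair nothing in the labels, and deviations of same-numbered libraries correlated at −0.23 to 0.11, so this fit is given only here. All-gene counts ranged over the alternatives from 3 to 1343 and from 2 to 248 for COPD mice on control and TJ-41 diet, from 0 to 10 and from 0 to 728 for the diet in control mice and COPD mice, and from 0 to 17 for the difference. Taken from variable gene reads, the kappa share was 89.4% in control mice fed control diet, 91.0% on the TJ-41 diet and 93.3% in COPD mice fed TJ-41, higher than from constant reads. With 2 libraries a group, differences within the spread of the COPD libraries on control diet were not detectable.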
